A study of Homo sapiens with 14 samples.

Results

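LTR17-HERV17 and LTR22-HERVK22 integrants are the copies of a pair of endogenous retrovirus families in the human genome. A copy was taken as a member when its annotated name, split into its parts, held LTR17, HERV17-int, LTR22, LTR22A, LTR22B, LTR22C or HERVK22-int. The rule found 1532 integrants of 4570939 in the transposable element (TE) tables, 900 of LTR17-HERV17 and 632 of LTR22-HERVK22, and no member belonged to both. The measurements are raw read counts from 12 bulk RNA-seq libraries of the human embryonic stem cell (hESC) line H9 and its derivatives. There were 2 libraries of undifferentiated hESC and 3 DE_ctl libraries of endoderm from cells with dCAS9-KRAB and no sgRNA. Another 3 DE_CRISPRi libraries were of endoderm with dCAS9-KRAB and an sgRNA against LTR5 elements, the LTRs of the HERVK(HML-2) group. The last 4 were foregut libraries, 2 named FG_ctl and 2 named FG_CRISPRi. Endoderm was made over 3 days with Activin A at 100 ng/ml and CHIR at 5 µM and then 0.5 µM, and foregut by 3 days of endoderm followed by 3 days in a foregut medium. dCAS9-KRAB is a nuclease-dead Cas9 joined to a repressor domain, so that it silences what the sgRNA binds (CRISPRi). The labels do not say that the hESC and FG_ctl cells carried it, and nothing names separate clones or cultures, so the p values measure the spread between these libraries, which may be technical.

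A complete provirus carries internal genes between a pair of long terminal repeats (LTRs), and the LTR holds its promoter and polyadenylation signal. Recombination between the LTRs leaves a solo LTR, which keeps the promoter without the genes. HERV17, also called HERV-W, is a primate family whose best-known copy is ERVW-1, the gene of the placental fusion protein syncytin-1. Many HERV-W copies were made by the reverse transcriptase of LINE-1 elements from a retroviral RNA, and such copies lack the first part of the 5′ LTR and the last part of the 3′ LTR. HERVK22 is one of the families grouped under HERVK, and LTR22 and its lettered variants are its LTRs.

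The LTR17 promoters were compared with those of genes by the letters they hold. Over the 625 windows that span the first 300 bases of an LTR17 with its start (GRCh37), searched on both strands, TATAAA was found in 88.2% and CCAAT in 96.3%, against 11.5 and 34.6% of 35116 RefSeq promoter windows of 300 bases (GRCh38.p14). Other letters were searched on both strands too. AGATAA, a motif of zinc finger factors of early endoderm, was in 4.8% of LTR17 windows and 10.3% of promoters. The octamer ATGCAAAT was in 0.16 and 1.77%, the FOXA motif TGTTTAC in 1.6 and 3.42%, and the SOX motif ACAATGG in 17.8 and 3.16%. GGGCGG and CACGTG were in 1.44 and 0.8% of the LTR17 windows and in 45 and 7.26% of the promoters. The LTR17 windows were found by alignment to a solo LTR17 in an intron of LINC01194, which itself holds TATAAA and CCAAT. They are related copies of the same LTR, and a provirus can give more than 1, so they are not independent as different promoters are. A match of letters is a description of the sequence and not a binding site.

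The labels and the data were compared before the members were described. The titles name the 4 foregut libraries, whereas other fields of the same libraries describe hESC or endoderm without sgRNA. The titles were used, and markers of the tissues were read. Such markers bear on the tissue only, so the sgRNA of the FG_CRISPRi libraries rests on their titles. In the FG_ctl libraries FOXA1, a foregut transcription factor, was at 205 ± 17.8 CPM (reads per 1000000 gene reads, mean ± SD, n = 2), against 6.53 ± 1.44 in DE_ctl (n = 3). CER1, an endoderm marker, was at 3849 ± 238 CPM in DE_ctl and 0.877 ± 0.0599 in FG_ctl, and POU5F1, a pluripotency factor, at 734 ± 103 and 3.47 ± 1.53. The libraries held 11583063 to 37152434 reads in genes, with a further 1.21 to 2.01% of that number in TEs. The targeted LTR5_Hs elements summed to 17.8 to 19.2 CPM in DE_ctl and 10.6 to 14.1 in DE_CRISPRi, which did not pass the edgeR test (-0.57 ± 0.25 in log2, SE, adjusted p = 0.774), and to 9.10 and 8.75 in FG_ctl and 4.43 and 10.9 in FG_CRISPRi. LTR5B elements, from whose consensus the sgRNA was designed, were at 5.03, 5.57 and 5.50 CPM in DE_ctl and 1.5, 3.36 and 3.02 in DE_CRISPRi, and at 12.4 and 9.29 in FG_ctl and 5.59 and 4.28 in FG_CRISPRi. Neither pair of groups overlapped, and neither difference passed the edgeR test (-1.03 ± 0.34, adjusted p = 0.491, and -1.09 ± 0.64, adjusted p = 0.998). LTR5A elements were at 39.1 to 62.8 CPM in DE_ctl and 88.7 to 110 in DE_CRISPRi (0.97 ± 0.25, adjusted p = 0.246).

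The foregut libraries stood apart in how reads were spread over integrants. In the hESC and endoderm libraries 69.7 to 84.0% of the integrants with a read had 1 or 2 reads, and in the foregut libraries 6.62 to 8.70%. Of the integrants of the whole table with at least 10 reads in 1 FG_ctl library, 73.7% had 0 in the other, and 82.4% for FG_CRISPRi, against 3.69% for hESC, 4.61% for DE_ctl and 7.67% for DE_CRISPRi. Among members the numbers were 14 of 22 for FG_ctl, 15 of 20 for FG_CRISPRi, 0 of 5 for hESC, 1 of 6 for DE_ctl and 0 of 6 for DE_CRISPRi. Their part in the foregut results was not tested, and foregut values are therefore given for each library.

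**Figure D1:**
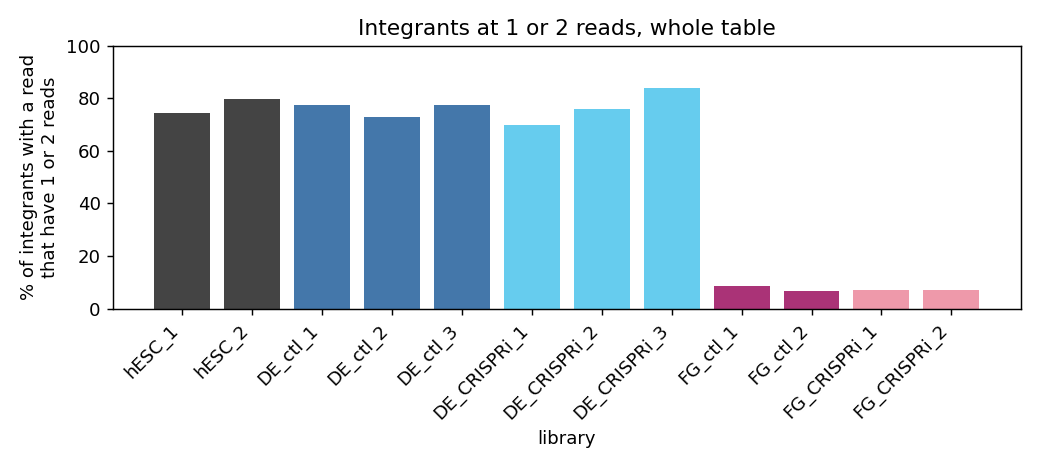
Percentage of the integrants with a read that have only 1 or 2 reads, for each of the 12 libraries over the whole TE table, coloured by group. The 8 hESC and endoderm bars lie between 69.7 and 84.0%, and the 4 foregut bars between 6.62 and 8.70%.

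Few members had a uniquely mapped read, which is not the same as few being transcribed. A read was found in 147 of the 1532 members (9.60%), 97 of LTR17-HERV17 and 50 of LTR22-HERVK22, against 5.57% of all integrants of the table, and 1385 members had none in any library. Of the 147, 97 had fewer than 10 reads over the 12 libraries, 85 were seen in 1 library alone, 104 had no foregut read and 20 had foregut reads only. Copies with an LTR at both ends had a read in 28 of 106 cases (26.4%), those with an LTR at 1 end in 52 of 355 (14.7%), LTR-only copies in 51 of 818 (6.24%) and internal-only copies in 16 of 252 (6.35%). Their median lengths of 5245, 1701, 578 and 451 bases differ too, and longer copies offer more bases to a read. The lengths of members and of all integrants of the table were not compared. A read was found in 25 of 99 members that overlap an annotated exon, in 72 of 601 in introns and in 50 of 832 outside genes. Among members named LTR17, 272 matched both the start and the end of the 778-base solo LTR17 in a LINC01194 intron, the copy with the most reads, and 42 of these had a read (15.4%). Another 364 matched the start and not the end, and 40 of them had a read (11%). Start and end were read over all LTRs of a copy, so they could come from different LTRs. The class that matched both can therefore hold copies without a complete LTR. A match that ends early is also not always an LTR that stops early. The provirus at chr4:42287455-42294913 has an LTR at both ends, and the match of its 5′ LTR ends at base 730. The 10 members with the highest mean level held 82.4% of the 6845 member reads. Of these 10, 7 were LTR17-HERV17 and 5 overlap an exon, and their nearest LTR5 element lay 338933 to 6932315 bases away.

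**Figure D2:**
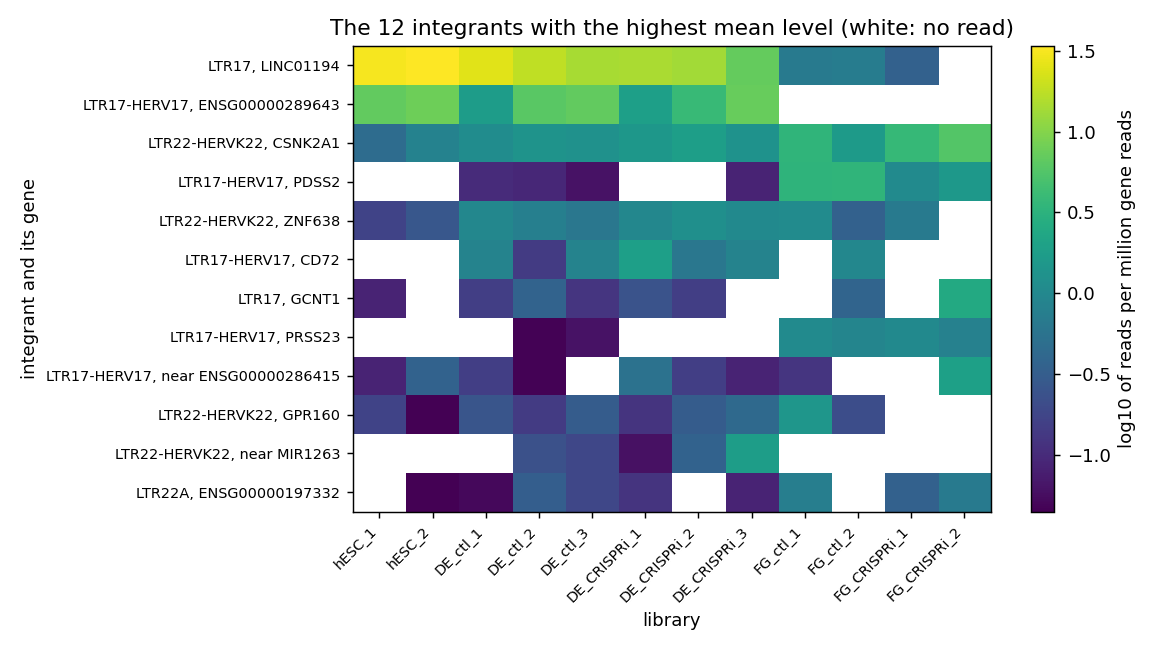
Level of the 12 members with the highest mean level (rows, named by the gene they lie in or near) in each of the 12 libraries (columns), as log10 of CPM, with white for no read. The LINC01194 and ENSG00000289643 copies are high in hESC and endoderm and low or white in foregut, while the PDSS2 and PRSS23 copies are white or dark outside the foregut libraries.

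From hESC to endoderm the summed families differed in opposite directions. LTR17-HERV17 was at 40.4 and 44.5 CPM in hESC, at 31.0, 27.2 and 24.6 in DE_ctl and at 22.6, 21.0 and 18.2 in DE_CRISPRi. In the foregut it was at 7.38 and 10.6 in FG_ctl and 6.97 and 8.41 in FG_CRISPRi. The hESC libraries were the highest, the endoderm groups did not overlap each other or hESC, and the foregut libraries were all below 11 CPM. LTR22-HERVK22 was at 1.44 and 2.08 CPM in hESC, 3.05, 3.85 and 2.93 in DE_ctl, 3.66, 4.28 and 6.04 in DE_CRISPRi, 6.95 and 3.82 in FG_ctl, and 7.0 and 8.55 in FG_CRISPRi. Here hESC was the lowest group and every other library lay above it. By a 2-sided exact permutation test of the sums, the hESC and DE_ctl groups gave p = 0.1 for both families, the smallest p that 2 against 3 libraries allow. In foregut against endoderm LTR17-HERV17 gave p = 0.1 again, while the LTR22-HERVK22 groups overlapped, since FG_ctl replicate 2 lay within the DE_ctl range (p = 0.2 by the same exact test). That overlap depends on the rule for members, which leaves out copies named only by LTR22B1, LTR22B2, LTR22C0, LTR22C2 or LTR22E. With such copies kept in (989 integrants), LTR22-HERVK22 was at 8.21 and 5.09 CPM in FG_ctl. It was then at 3.20, 4.46 and 3.48 in DE_ctl, so the groups did not overlap. No exact test is given for these wider sums. In bulk RNA, fewer transcribing cells and less RNA per cell cannot be told apart.

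**Figure D3:**
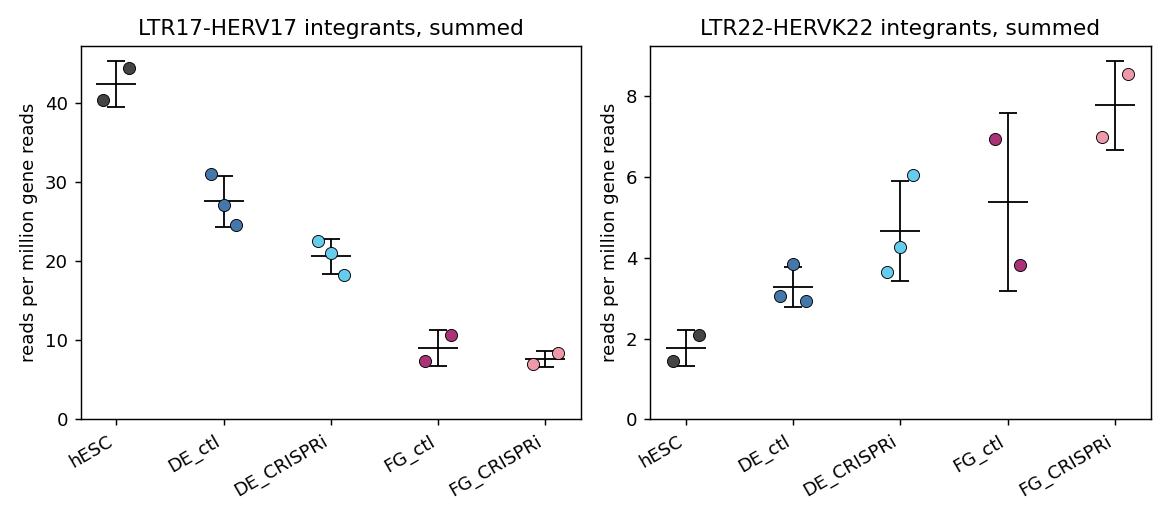
Summed level of each family in CPM, with a point for each library, and the mean and SD of each group as bars, on axes that start at 0. The LTR17-HERV17 means are 42.5 in hESC, 27.6 in DE_ctl and 9.01 in FG_ctl, and those of LTR22-HERVK22 are 1.76, 3.28 and 5.39.

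A single solo LTR17 carried most of the LTR17-HERV17 reads. The 778-base copy at chr5:12660494-12661271 (GRCh37) lies in an intron of the long non-coding RNA LINC01194, on the opposite strand. Its level was 30.8 and 34.1 CPM in hESC, 25.3, 18.0 and 14.1 in DE_ctl, and 14.7, 13.6 and 6.99 in DE_CRISPRi. It fell to 0.674 and 0.727 CPM in FG_ctl and to 0.345 and 0 in FG_CRISPRi. The hESC libraries lay above all DE_ctl libraries, DE_ctl and DE_CRISPRi overlapped, and the foregut libraries were far below. It held 76.1 and 76.5% of the family's reads in hESC, 57.3 to 81.6% in DE_ctl and 38.4 to 65.0% in DE_CRISPRi, and 9.13% or less in each foregut library. LINC01194 itself had 4 reads in DE_ctl, 4 in DE_CRISPRi and none in the other groups, and since the strand used in counting is not stated, reads of the LTR and of LINC01194 introns cannot be told apart.

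TE copies on either side of this LTR17 had reads in the same groups. A HERVH-int copy joined to LTR7, whose centre lies 5198 bases from that of the LTR17 (higher coordinate), had mean levels of 23.4 CPM in hESC, 11.6 in DE_ctl, 6.95 in DE_CRISPRi, 0 in FG_ctl and 1.49 in FG_CRISPRi. HERVH with LTR7 is a family known for transcription in human pluripotent cells. On the other side the L1PREC2, L1MEf and L1ME3Cz copies, whose centres lie at -2624, -5464 and -6310 bases, had 4.41, 5.34 and 5.05 CPM in hESC, 0.826, 1.14 and 1.07 in DE_ctl, and 0 in both foregut groups. The L1MEf and L1ME3Cz copies overlap an annotated exon. Whether their reads come from an annotated transcript was not tested. All 5 copies listed here, the LTR17 among them, were highest in hESC. Neighbours were listed within 20000 bases and with at least 10 reads over the 12 libraries. The listed ones passed that limit mostly through hESC and endoderm reads, and copies below it were not counted.

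The second member by level is a provirus of 7459 bases with an LTR at both ends (chr4:42287455-42294913). It lies on the same strand as ENSG00000289643, an unnamed long non-coding RNA whose annotated start lies within the 5′ LTR of the provirus, at position 42294661. The provirus was at 6.97 and 7.76 CPM in hESC, 1.73, 6.18 and 6.84 in DE_ctl and 1.86, 3.92 and 7.34 in DE_CRISPRi. No read was found in any of the 4 foregut libraries. The endoderm libraries spread from far below hESC up to the hESC level, and DE_ctl replicate 1 and DE_CRISPRi replicate 1 were the low ones. With the floor of 3 reads over the 2 FG_ctl libraries, the level in DE_ctl was at least 114-fold higher than in FG_ctl and that in hESC at least 171-fold higher. The integrant overlaps exons of that RNA. It also lies within ENSG00000250781, another long non-coding RNA of the same strand, which starts outside the provirus. Reads of the provirus and of either annotated transcript cannot be told apart.

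A smaller set of LTR17-HERV17 copies was seen in foregut and scarcely elsewhere. The PDSS2 copy (chr6:107620617-107621947, 1331 bases, HERV17-int followed by the start of an LTR) is antisense to PDSS2, a gene of coenzyme Q synthesis, and its LTR matches end at base 323 of the 778. It was at 3.34 and 3.39 CPM in FG_ctl and 1.07 and 1.54 in FG_CRISPRi, so that the foregut groups did not overlap. In the other 8 libraries it had 0, 1 or 2 reads, 0.102 CPM at most, and none in hESC. PDSS2 itself had mean levels of 23.0 CPM in hESC, 14.9 in DE_ctl and 10.3 in FG_ctl, and its foregut difference did not pass (-0.51 ± 0.28 in log2, SE, adjusted p = 0.181 by edgeR). The PRSS23 copy (chr11:86544538-86545548, 1011 bases, antisense to the serine protease gene PRSS23, LTR match ending at base 321) was at 1.07 and 0.915 CPM in FG_ctl and 1.04 and 0.817 in FG_CRISPRi. Elsewhere it had a single read in each of 2 DE_ctl libraries. An HERV17-int fragment beside it (chr11:86545657-86547860) was at 0.214 and 0.350 CPM in FG_ctl and 0.785 and 1.01 in FG_CRISPRi, with 2 reads in DE_ctl and none in the other groups. PRSS23 rose in the same direction, from 35.9 ± 14.3 CPM in DE_ctl to 112 ± 12.1 in FG_ctl (log2 fold change 1.66 ± 0.31, SE, adjusted p = 0.00328 by edgeR), and L1PA6 and L1PA3 copies with centres at 8894 and -6444 bases had mean levels of 0.504 and 0.473 CPM in FG_ctl against 0.0324 and 0.157 in DE_ctl. All 4 foregut libraries had reads of the PDSS2 copy, the PRSS23 copy and the fragment beside it.

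**Figure D4:**
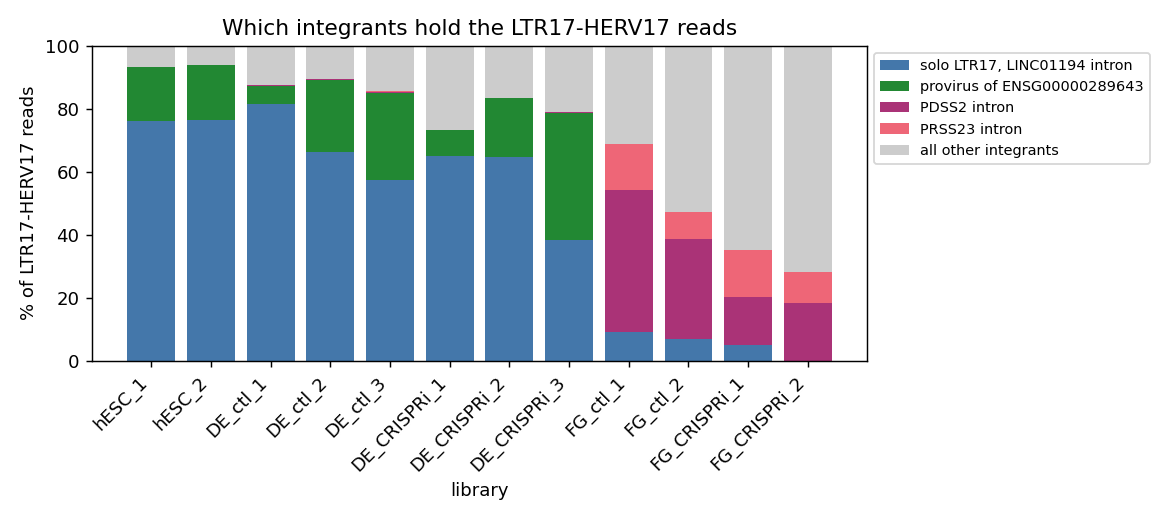
Share of the LTR17-HERV17 reads of each library (percent) that fell on 4 named copies and on all others together, as stacked bars. The LINC01194 copy holds 38.4 to 81.6% in the hESC and endoderm libraries, where it leads in all but DE_CRISPRi replicate 3, and the PDSS2 copy is the top one in both FG_ctl libraries with 45.2 and 31.9%.

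Other LTR17-HERV17 copies were lower and less even. The copy at chr9:35640302-35642824 lies within CD72, the gene of a B cell surface receptor, and the long non-coding RNA ENSG00000231393 on the other strand, with overlap of an exon. It had no read in hESC, 17, 3 and 14 reads in DE_ctl and 31, 12 and 10 in DE_CRISPRi. In foregut it had 36 reads in FG_ctl replicate 2 and 0 in the other 3 libraries. The GCNT1 copy, a solo LTR17 in an intron of a glycosyltransferase gene (chr9:79084147-79084906), had 0 to 8 reads in each hESC and endoderm library, 0 and 14 in FG_ctl, and 0 and 52 in FG_CRISPRi. A copy outside genes (chr2:33887288-33889522) had 0 to 9 reads in the hESC and endoderm libraries, 4 and 0 in FG_ctl and 0 and 40 in FG_CRISPRi. Both were thus led by FG_CRISPRi replicate 2.

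Few uniquely mapped reads were counted at the ERVW-1 locus, whose integrants overlap exons. How reads on both a gene and an integrant were assigned is not given in the sources used here. ENSG00000244055, a long non-coding RNA of the opposite strand, spans the locus too. The longer integrant of the locus (chr7:92097313-92105910, same strand as ERVW-1) had 2 reads in DE_ctl replicate 1, 1 read each in DE_CRISPRi replicates 1 and 3, 15 in FG_ctl replicate 2 and none in the other 8 libraries. Its neighbour toward the gene's start (chr7:92106024-92107506) had 3 and 1 reads in DE_CRISPRi replicates 1 and 3. The ERVW-1 gene had 1 read in all, in DE_CRISPRi replicate 2. GCM1, the transcription factor that activates syncytin genes in trophoblast, had 0 reads in every library, and ERVFRD-1, the gene of syncytin-2, had 22 and 4 reads in FG_ctl, 56 and 0 in FG_CRISPRi and 0 elsewhere. SLC1A5, the main receptor of syncytin-1, was at 520 ± 102 CPM in hESC (n = 2), 205 ± 51.0 in DE_ctl (n = 3) and 76.9 ± 5.80 in FG_ctl (n = 2). ERVH48-1, which encodes suppressyn, a secreted inhibitor of that receptor's use, was at 5.35 ± 0.483, 185 ± 23.2 and 3.46 ± 2.03 CPM. In endoderm against hESC, 4 of the 7 genes of this axis were tested, 1 rose, ERVH48-1 (5.18 ± 0.24 in log2, SE, adjusted p = 6.38e-10 by edgeR), and 2 fell, SLC1A5 (-1.28 ± 0.21, adjusted p = 0.000214) and MFSD2A, the syncytin-2 receptor (-1.34 ± 0.32, adjusted p = 0.00331), where 14.2% of all genes were called higher and 11.7% lower. In foregut against endoderm ERVH48-1, SLC1A5 and MFSD2A fell among 5 tested, where 14.9% of all genes were called lower and 14.1% higher. Because HERV-W is known from placenta, trophoblast markers were read beside the foregut values. Their summed level was 97.8 and 154 CPM at the lowest and highest in FG_ctl against 21.8 to 36.7 in DE_ctl. Of 8 tested, 5 were called higher and 1, HAND1, lower, with GCM1 at 0. KRT7 (35.4 and 93.6 CPM in FG_ctl), GATA3 (27.8 and 19.3) and PGF (30.6 and 37.8) made up most of that sum. CGA, TFAP2A, HAND1, VTCN1 and ERVFRD-1 were each at 1.69 CPM or less in both FG_ctl libraries. Their part in the foregut values of the members was not tested.

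The LTR22-HERVK22 reads lay mostly in copies that overlap an exon of a host gene at 1 base or more. These copies held 76.5% of the family's reads, against 20.1% for LTR17-HERV17, and which bases of a copy the reads cover was not analysed here. The leading copy is a provirus of 5041 bases joined to LTR22E (chr20:448506-453546), which overlaps an exon of CSNK2A1, the gene of a catalytic subunit of casein kinase 2. It was at 0.467 and 0.842 CPM in hESC, 1.12, 1.35 and 1.28 in DE_ctl, 1.5, 1.83 and 1.30 in DE_CRISPRi, 3.46 and 1.64 in FG_ctl and 3.83 and 5.77 in FG_CRISPRi. The hESC libraries were the lowest, DE_ctl and DE_CRISPRi overlapped, and 3 of the 4 foregut libraries lay above all others. No comparison of this copy passed the edgeR test (endoderm against hESC 1.02 ± 0.58 in log2, adjusted p = 0.501, and foregut against endoderm 1.07 ± 0.67, adjusted p = 0.468). CSNK2A1 itself was at 241 ± 14.7 CPM in hESC (n = 2) and 236 ± 18.7 in DE_ctl (n = 3), and at 126 ± 9.76 in FG_ctl (n = 2), below the fold limit of a call (-0.89 ± 0.20, adjusted p = 0.00797). A copy in ZNF638, a nucleic acid-binding zinc finger gene (chr2:71615229-71622947), was at 0.170 and 0.266 CPM in hESC and 0.966, 0.789 and 0.611 in DE_ctl, and a copy in GPR160, an orphan receptor gene (chr3:169795200-169797078), had 48 and 8 reads in FG_ctl and 0 in both FG_CRISPRi libraries.

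Without the exonic copies little of the LTR22-HERVK22 signal was left, namely 0.521 ± 0.0157 CPM in hESC (n = 2), 0.787 ± 0.259 in DE_ctl (n = 3) and 0.809 ± 0.155 in FG_ctl (n = 2), with 1.59 ± 1.17 in DE_CRISPRi (n = 3) and 2.08 ± 0.994 in FG_CRISPRi (n = 2). The most read LTR-only copy of this family is an LTR22A in an intron of the long non-coding RNA ENSG00000197332 (chr19:11768082-11768524). Its first 300 bases on the plus strand of the genome (chr19:11768082-11768381) are shown as the example of this LTR, with the CCAAT box of either strand in capitals (ATTGG is a CCAAT box of the other strand).
LTR22A copy: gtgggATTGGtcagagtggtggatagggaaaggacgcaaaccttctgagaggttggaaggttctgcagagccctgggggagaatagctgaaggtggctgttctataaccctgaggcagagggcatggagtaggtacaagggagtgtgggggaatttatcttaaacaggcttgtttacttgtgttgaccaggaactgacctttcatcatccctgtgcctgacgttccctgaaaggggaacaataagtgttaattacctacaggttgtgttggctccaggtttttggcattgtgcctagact
It had 0 and 1 reads in hESC, 1, 7 and 3 in DE_ctl, 2, 0 and 1 in DE_CRISPRi, 25 and 0 in FG_ctl and 11 and 14 in FG_CRISPRi. FG_ctl replicate 1 was the highest of all libraries and FG_ctl replicate 2 had no read. Of the other LTR22 names, LTR22 had 21 reads, LTR22B 28 and LTR22C 10 over all 12 libraries, and all 10 LTR22C reads were in FG_CRISPRi replicate 1.

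The first comparison asked which members change as hESC become endoderm. By edgeR's quasi-likelihood test, where a call needs an adjusted p under 0.05 together with a change of over 2-fold, 0 of the 28 members tested were called, where 3.78% of all integrants without exon overlap were. At an unadjusted p under 0.05 with the same fold, 3 members were higher and 1 was lower, beside 6.23 and 4.8% of all such integrants. DESeq2 and limma voom called 0 too. The LINC01194 LTR17 stood at -0.69 ± 0.37 (log2 fold change with SE, adjusted p = 0.48). With exon-overlapping copies kept in, the CD72 copy was called higher (adjusted p = 0.000277), 1 of 8 members tested there, where 3.13% of all integrants were. The level of this copy in DE_ctl was at least 9.52-fold higher than in hESC, with the floor of 3 reads over the 2 hESC libraries. The CD72 gene was called higher too, from a mean of 0.498 CPM in hESC to 1.65 in DE_ctl (1.78 ± 0.46, adjusted p = 0.00602 by edgeR). Of all genes, 14.2% were called higher there. Whether the reads of the copy come from CD72 transcripts was not tested. Among subfamily names, HERVK22-int rose (1.07 ± 0.35, adjusted p = 0.0350) from 1.10 and 1.91 CPM to 2.90, 3.48 and 2.56, where 10.5% of all names were called higher. The call was lost without the copies that overlap exons (0.99, adjusted p = 0.364), without hESC replicate 1 (0.79, adjusted p = 0.252), and without DE_ctl replicate 2 (0.94, adjusted p = 0.138) or replicate 3 (1.13, adjusted p = 0.0581). LTR17 was at -0.55 ± 0.23 (adjusted p = 0.108), HERV17-int at -0.27 ± 0.32 (adjusted p = 0.594), LTR22A at 1.03 ± 0.72 (adjusted p = 0.35) and LTR22B at -1.33 ± 1.09 (adjusted p = 0.428), beside a median of -0.23 over all names.

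The second comparison asked how these families differ under the LTR5 sgRNA, which was designed on another LTR. Matches of the sgRNA inside the members were not searched. In endoderm edgeR called 0 of 24 members and 0 of 6 names, where 0.0254% of all integrants and 0% of all names were called. DESeq2 and voom also called 0, and 0 of the names passed an unadjusted p under 0.05, as 5.56% of all names did. At an unadjusted p under 0.05 and a fold over 2, 1 member was higher, beside 2.04% of all integrants, an LTR22E-HERVK22 copy outside genes (chr3:163933395-163938111). It had 0, 5 and 3 reads in DE_ctl and 1, 7 and 21 in DE_CRISPRi, so that DE_CRISPRi replicate 3 held most of them (2.29 ± 0.81 in log2, adjusted p = 0.635), and it was chosen after its values were seen. The LINC01194 LTR17 was at -0.67 ± 0.38 (adjusted p = 0.635) and the chromosome 4 provirus at -0.19 ± 0.40 (adjusted p = 0.861). The LTR17-HERV17 sum was lower in all 3 DE_CRISPRi libraries than in all 3 DE_ctl libraries (20.6 ± 2.23 against 27.6 ± 3.23 CPM, exact permutation p = 0.1, the smallest these libraries allow). Without the LINC01194 LTR17 the sums were 8.86 and 8.45 CPM, so the direction of the difference turned. In foregut edgeR called 0 of 28 members and 0 of 7 names, where 0.00595% of integrants and 0.0976% of names were called, and DESeq2 and voom called 0. At an unadjusted p under 0.05, 0 members passed with a fold over 2 (background 0.444%) and 0 names passed (3.51%). The PDSS2 copy was at -1.37 ± 1.64 (adjusted p = 0.66), with both FG_CRISPRi libraries below both FG_ctl libraries. An interaction term, the difference of the sgRNA effect between foregut and endoderm, called 0 of 45 members (background 0.0162%) and 0 of 7 names (0.0928%) by edgeR, and DESeq2 called 0. Of the 45, 35 had no read in at least 1 of the 4 groups and a standard error over 100, so nothing can be read from them. The other 10 members and 6 of the names had usable standard errors, and 0 of them passed an unadjusted p under 0.05. A p that misses the threshold does not show that the groups were alike, since a difference of the size of these standard errors was not detectable at this depth.

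The last comparison set FG_ctl against DE_ctl, which also differ in depth and in the spread of reads given above, so tissue and library type cannot be told apart. Mitochondrial reads, which count among the gene reads, made up 28.95 and 17.59% of them in FG_ctl and 8.3 to 14.41% in DE_ctl. This comparison shares the DE_ctl libraries with the first 2 comparisons. Of 30 members tested, 1 rose and 1 fell, where 5.28% of all integrants were called, 3.73% higher and 1.55% lower. The LINC01194 LTR17 fell (log2 fold change -4.75 ± 0.70, adjusted p = 1.41e-09) and the PDSS2 copy rose (5.23 ± 0.88, adjusted p = 2.43e-07). The PDSS2 call was lost with the replicate number as a block (5.08, adjusted p = 0.0851). The PRSS23 copy was at 4.65 ± 1.55 and just missed the threshold (adjusted p = 0.0520). It passed with DESeq2 (4.91, adjusted p = 0.00925), and missed with any DE_ctl library left out (4.15, 4.91 and 5.17, adjusted p = 0.437, 0.343 and 0.266). With either FG_ctl library left out, which leaves 1 library in that group, it was at 4.44 and 4.88. With exon-overlapping copies kept in, the chromosome 4 provirus was called lower (adjusted p = 1.41e-16), where 1.97% of all integrants were, and its bound of at least 114-fold is the value to read. Among names LTR17 fell (-1.67 ± 0.31, adjusted p = 0.000936), where 7.51% of names were called lower. HERV17-int was at 0.06 ± 0.38 (adjusted p = 0.91), and without exon-overlapping copies it rose (2.23, adjusted p = 0.00183). LTR22A (1.44 ± 0.93, adjusted p = 0.258) and HERVK22-int (0.76 ± 0.41, adjusted p = 0.17) did not pass, beside a median of 0.69 over all names. Without FG_ctl replicate 2 LTR22A was at 2.38 and HERVK22-int at 1.17, and without FG_ctl replicate 1 LTR22A was at -1.19. The LTR17-HERV17 sum without the LINC01194 LTR17 was 8.45 ± 2.48 CPM in DE_ctl and 8.31 ± 2.26 in FG_ctl. That remainder holds copies whose means differed in opposite directions, such as the chromosome 4 provirus (a mean of 4.92 CPM in DE_ctl and 0 in FG_ctl) and the PDSS2 copy (0.0852 and 3.36).

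**Figure D5:**
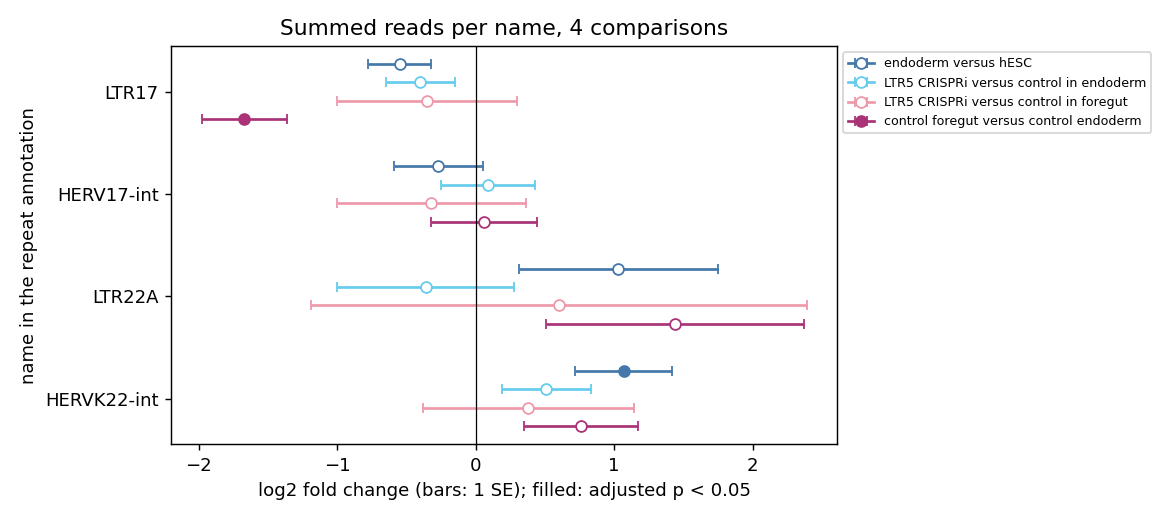
Log2 fold change (horizontal axis, bars of 1 SE) of the summed reads of LTR17, HERV17-int, LTR22A and HERVK22-int in the 4 comparisons, with filled points at an adjusted p under 0.05. LTR17 in control foregut against control endoderm (-1.67) and HERVK22-int in endoderm against hESC (1.07) are filled.

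Genes that silence retroviral elements were read beside these values. Of 11 listed genes, all tested, 2 fell in endoderm against hESC, namely DNMT3B, a de novo DNA methyltransferase (1212 ± 129 to 211 ± 40.0 CPM, log2 fold change -2.45 ± 0.19, adjusted p = 7.6e-08), and MORC2, an ATPase that acts with the HUSH complex (-1.03 ± 0.20, adjusted p = 0.000703). In foregut against endoderm DNMT3B (-3.43 ± 0.25, adjusted p = 2.38e-05) and DNMT1, the maintenance methyltransferase (-1.32 ± 0.25, adjusted p = 0.00369), fell. These counts stand beside 11.7 and 14.9% of all genes called lower, so 2 of 11 is near the background. TRIM28, the corepressor of KRAB zinc finger proteins, was at -0.68 ± 0.17 in endoderm (adjusted p = 0.00553), under the fold limit. The list's medians of -0.32 and -0.14 stood beside 0.05 and -0.09 over all genes.

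As a description over the 12 libraries, which fall into tissue groups, the genes whose log2(CPM + 1) was most like the LTR17-HERV17 sum were PHKA1 (Pearson r = 0.991), FGFR1 (0.989), CNOT1 (0.984), ANAPC5 (0.983) and LNCPRESS2 (0.983), among 14221 genes ranked. For the LTR22-HERVK22 sum they were FBXL2 (0.927), CARD8 (0.924), CCDC34 (0.923), RPS24P8 (0.915) and SPOCK1 (0.914). RPS24P8 is a pseudogene whose reads may be shared with its parent gene. ERVW-1, with 1 read in all, was too low for such a ranking.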

How the data were processed

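H9 libraries were made with a stranded mRNA kit. The authors aligned reads with HISAT2 to hg19 and counted uniquely mapped reads (mapping quality over 10) with featureCounts on a joint annotation of genes and TEs, merging fragments of an integrant. The authors deposited unnormalised counts of reads for every gene and integrant. The counting strand is not given in the sources used here. Reads that map to several copies are not in these tables, which lowers young, near-identical copies most. The members and lists were chosen with earlier results of these data known.

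Counts were divided by gene reads. Features that reached 3 reads in at least 1 library entered edgeR (version 4.0.16 under R 4.3.3), fitted by quasi-likelihood with TMM factors from genes, with DESeq2 1.42.0 and limma 3.58.1 voom as alternatives, and p values were Benjamini-Hochberg adjusted over all features. Integrants overlapping GENCODE exons were left out of the main integrant test, and names summed all copies. Named members were those called, the 10 with the highest mean level, and those within 10 kb of ERVW-1. All tests were 2-sided. bedtools 2.31.1 placed integrants and blastn 2.17.0 oriented LTRs; 37 members lie on sequences outside the reference used. The tests were also run on simulated counts with the same spread in every group. Those counts lack the uneven reads of the foregut libraries, so they cannot show how the tests behave there. Single-nucleus data of the series were not used here. Floors cover counting error only. Some items are not reported here.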

Additional observations from a re-analysis of the deposited data

How the results depend on the processing

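The number of members called in endoderm against hESC (0) became 1 with at least 10 reads in total, 1 with exon-overlapping copies kept in and 4 at an unadjusted p. The number of names called there (1) became 2 with DESeq2 or an unadjusted p, and 0 with all 12 libraries in 1 fit, without exon-overlapping copies or with single-name copies only. Under CRISPRi in endoderm 1 member passed at an unadjusted p. In foregut against endoderm the members called (2) became 6 with TE reads as library size, 1 with the replicate block and 4 with exon-overlapping copies, and the names called (1) became 2 without those copies. The share of all features called is not given here for these settings. It is not given either for the fits without 1 library, some of which leave 1 library in a group. A higher count is therefore not a result about the members. Leaving out 1 library gave 0 to 2 names in endoderm against hESC, 2 to 6 members and 1 to 3 names in foregut against endoderm, and 0 in every other count of members or names.

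The log2 ratio of the LTR17-HERV17 sums without the LINC01194 copy was -0.25 in endoderm against hESC (main -0.62), 0.07 under CRISPRi in endoderm (main -0.42) and -0.02 in foregut against endoderm (main -1.62), and without exon-overlapping copies -0.60 under CRISPRi in endoderm. Without exon-overlapping copies the LTR22-HERVK22 ratio was 1.02 under CRISPRi in endoderm (main 0.51), 1.36 under CRISPRi in foregut (main 0.53) and 0.04 in foregut against endoderm (main 0.72). Leaving out 1 library gave LTR17-HERV17 ratios of -0.71 to -0.55, -0.50 to -0.33, -0.47 to 0.06 and -1.90 to -1.38 in endoderm, CRISPRi endoderm, CRISPRi foregut and foregut against endoderm, and LTR22-HERVK22 ratios of 0.65 to 1.18, 0.28 to 0.65, 0.16 to 1.02 and 0.22 to 1.08. With all names that start with LTR22 or HERVK22 kept in, the LTR22-HERVK22 mean was 3.71 CPM in DE_ctl (main 3.28). It was 5.29 in DE_CRISPRi (main 4.66) and 6.65 in FG_ctl (main 5.39). Every DE_CRISPRi and FG_ctl library then lay above all DE_ctl libraries, whereas the main sums overlapped in both comparisons. The cause of these changes was not tested.

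None of the sign changes of single names concerned a called value. With single-name copies only, HERV17-int was at 0.10 in endoderm and 1.34 under CRISPRi in foregut, HERVK22-int at -0.92 and -6.35 under CRISPRi in endoderm and foregut, and LTR17 at 0.27 under CRISPRi in foregut. With TE reads as library size, HERV17-int was at -0.19 under CRISPRi in endoderm and -0.71 in foregut against endoderm, HERVK22-int at -0.02 under CRISPRi in foregut and -0.09 in foregut against endoderm, and LTR22 at -0.03 there. LTR22 was at -0.09 there with voom and HERVK22-int at -0.46 without exon-overlapping copies. The interaction of HERVK22-int was at 0.17 with the replicate block.

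Where leaving out 1 library turned the sign, the log2 values ranged from -0.53 to 0.00 for HERV17-int in endoderm. Under CRISPRi in endoderm they ranged from -1.27 to 0.03 for the GCNT1 copy and from -0.18 to 0.34 for HERV17-int. Under CRISPRi in foregut they ranged from -0.43 to 0.25 for the PRSS23 copy, -4.15 to 7.71 for the chromosome 2 copy, -5.58 to 7.95 for the GCNT1 copy, -4.08 to 4.51 for LTR22 and -0.28 to 3.23 for LTR22A. In foregut against endoderm they ranged from -3.80 to 1.35 for the chromosome 2 copy, -5.29 to 0.69 for the GCNT1 copy, -0.17 to 0.30 for HERV17-int and -1.19 to 2.38 for LTR22A. For the interaction they ranged from -5.66 to 5.30 for the chromosome 2 copy, -0.38 to 2.71 for the PDSS2 copy, -4.48 to 8.17 for the GCNT1 copy, -0.52 to 0.36 for HERVK22-int, -0.08 to 0.22 for LTR17, -6.24 to 1.45 for LTR22 and -0.89 to 3.84 for LTR22B.

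The labels tie equal replicate numbers to no shared culture or batch, and with 2 or 3 pairs the check gave no pairing throughout. Deviations of same-numbered libraries correlated at 0.033 and 0.065 in endoderm and hESC, -0.073, -0.068 and -0.018 in the endoderm groups, -0.285 in the foregut groups, and 0.217 and 0.178 in foregut and endoderm controls, the comparison in which the block loses the PDSS2 call. The replicate block changed no call other than that of the PDSS2 copy. Crossing the numbers in foregut, an alternative chosen after seeing the data, gave 0 members and 0 names.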
